A study of Homo sapiens with 6 samples.

Results

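The genes described here are 10 apolipoprotein and lipoprotein assembly genes, APOA1, APOA2, APOA4, APOB, APOC1, APOC3, APOE, APOH, APOM and MTTP, taken by their symbols from a table of 35856 genes. Of the 10, 8 have a row in the table, and APOA4 and APOC3 were not analysed here. RNA was sequenced from 6 libraries of HCCLM3, an established human hepatocellular carcinoma line. In the LINC00862 group (3 libraries) the cells carried a vector that overexpresses the long non-coding RNA LINC00862, and in the control group, NC (3 libraries), they carried the empty vector. By this description both groups share the parental line and a transfection, which was not tested here. Nothing in the labels says that the 3 libraries of a group came from separate cultures, so the p-values below measure the spread between these libraries, which may be technical. The comparison of LINC00862 with NC asks which of these genes differ in messenger RNA when LINC00862 is overexpressed.

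Apolipoproteins are the protein part of lipoproteins, the particles that carry cholesterol and triglycerides in blood. The liver builds very low density lipoprotein (VLDL) around a single large protein, ApoB, onto which the microsomal triglyceride transfer protein, encoded by MTTP, loads lipid in the endoplasmic reticulum. The smaller exchangeable apolipoproteins, such as ApoE and the ApoA and ApoC proteins, then steer the particles to receptors, lipases and lipid transfer proteins. Hepatocytes express most of these genes at a high level, and the intestine is the other main source of ApoB, ApoA1, ApoA4 and ApoC3.

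The library totals lay between 58241123 and 68229070 counts. A count of 0 in a library allows a level of up to 3 counts, a floor that covers counting error only. The counts of LINC00862 itself were 11, 21 and 6 in NC and 145, 121 and 76 in LINC00862, with no overlap. In a fit that kept every gene with at least 1 count, the log2 fold change was 3.21 (adjusted p = 8.75e-04, quasi-likelihood test of edgeR with p-values adjusted by Benjamini-Hochberg). After a filter on low counts, which LINC00862 passed only with the LINC00862 libraries, it was 3.22 (SE 0.53). Leaving out 1 library at a time gave LINC00862 a filtered value of 2.91 to 3.83, the latter without NC replicate 2. Its level was low in both groups in FPKM (the sequenced fragments of a gene scaled by its length and by the size of the library). It was 0.0425, 0.0884 and 0.0214 FPKM in NC and 0.530, 0.506 and 0.312 FPKM in LINC00862, where it ranked 14179 to 16104. Markers of the labelled cell type differed between the groups as well. Of 12 hepatocyte markers in the table, 11 were tested, 9 were higher and 2 lower in LINC00862, beside 34.4% higher and 29.8% lower over all tested genes. Of the tested markers, 5 reached the filter on low counts in the LINC00862 libraries alone. The summed FPKM of the 12 was 8.00 to 8.34 in NC and 1800 to 2213 in LINC00862. Fibrinogen alpha (FGA) and gamma (FGG) were the most abundant of them. TTR, AMBP and TAT were at 0 counts in every NC library, and ALB was at 0 in 2 of them. The 2 lower markers were SERPINA1 (1.285 ± 0.216 FPKM in NC and 0.095 ± 0.0428 in LINC00862, SD, n = 3) and ASGR1 (0.4565 ± 0.179 and 0.0766 ± 0.0418). The hepatoma and fetal liver markers summed to 45.1 to 85.5 FPKM in NC and 87.8 to 101.2 in LINC00862, where PEG10 made up most of the NC sum and SPINK1 most of the LINC00862 sum, and AFP, the fetal counterpart of albumin, was at 0 in every LINC00862 library. The mesenchymal list summed to 47.2 to 58.4 FPKM in NC and 12.7 to 16.4 FPKM in LINC00862. Of its 9 tested genes 3 were higher, 3 lower and 3 not called, near the 34.4% higher and 29.8% lower over all tested genes. THY1 made up most of the NC sum and was lower in LINC00862 (42.2 ± 6.07 and 0.101 ± 0.00758 FPKM, SD, n = 3), whereas COL1A1 was higher (2.43 ± 0.199 and 10.6 ± 2.45 FPKM). The macrophage list, led by CD68 and CD14, summed to 3.77 to 4.25 and 10.3 to 16.7 FPKM, while the enterocyte list, led by LGALS4, stayed at or below 0.475 FPKM in all 6 libraries. The part these differences have in the results below was not tested, and an effect of the overexpressed RNA and a difference between the cells that were transfected cannot be told apart. As in any bulk sample, more cells that express a gene and more RNA of it per cell cannot be told apart either.

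APOE rose strongly in the cells overexpressing LINC00862, and APOB was close to 0 in NC and low in LINC00862, whereas the other listed genes either did not pass the test or had too few counts to be tested. APOE was the one gene of the set with a level above 2 FPKM in any library. APOM and APOC1 had levels near or below 1 FPKM in both groups. APOA1, APOA2, APOH and MTTP had at most 15 counts in any library. Of the 10 listed genes, 4 passed the filter on low counts (APOE, APOB, APOC1 and APOM), 2 were called higher, 0 lower (0 also at an unadjusted p under 0.05 and 0 by DESeq2), and 2 were not called, in a comparison that called 34.4% of all 20741 tested genes higher and 29.8% lower (64.2% in either direction). APOB passed the filter through its counts in the LINC00862 group alone, as did 2136 (10.3%) of all tested genes, against 544 (2.62%) through NC alone. Here alone means that no library of the other group reached the cutoff of the filter. A gene of that kind had to differ between the groups to be tested, so its call is a description. Its fitted value is given below from the fit that kept every gene with at least 1 count. Genes such as LINC00862 and ABCG1, with some but not all NC libraries at the cutoff, passed only with the LINC00862 libraries too. They are outside these counts, and both are given from the same fit. The counts of called genes within the set were the same under every scaling of the libraries, although the median over the 20741 genes moved from a log2 fold change of 0.11 (TMM) to 0.32 (upper quartile) or -0.05 (library size only).

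**Figure D1:**
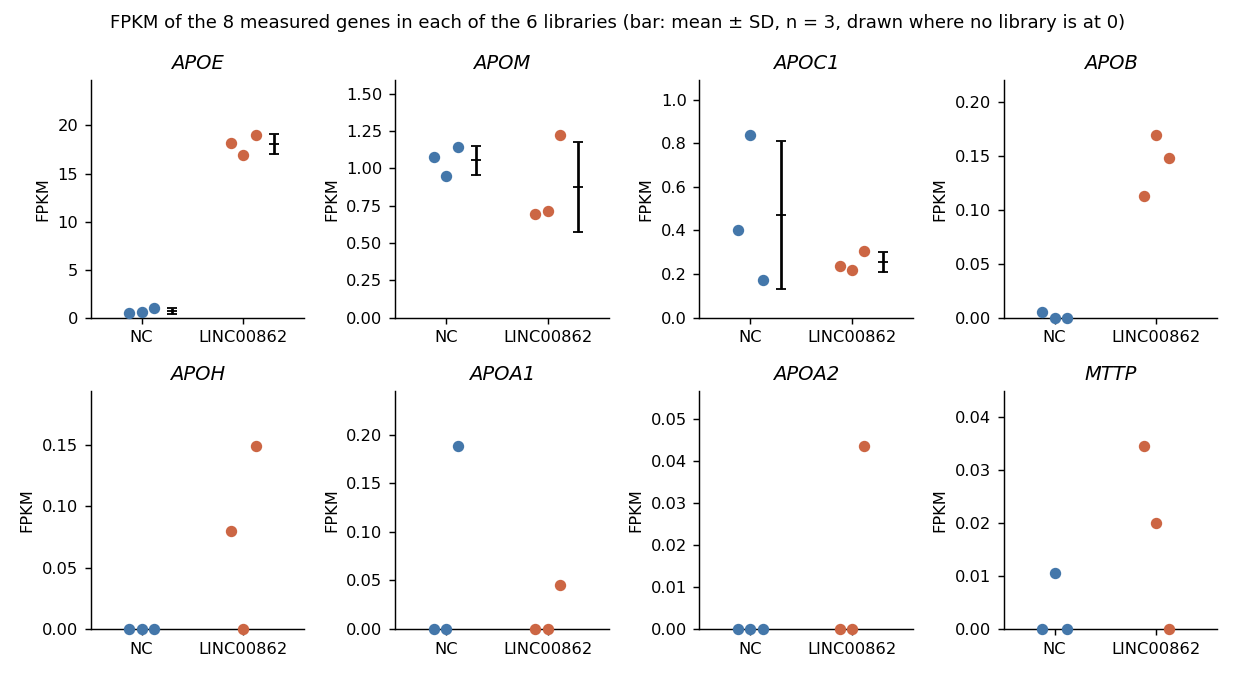
FPKM (vertical axis, linear, a separate scale per panel) of the 8 genes with a row in the table, with 1 point per library for NC (blue) and LINC00862 (orange) and the mean ± SD of 3 libraries where no library was at 0. The groups are apart for APOE (0.423 to 1.04 against 16.9 to 19.05 FPKM) and APOB (0 to 0.00535 against 0.113 to 0.170 FPKM), and overlap in the other 6 panels.

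APOE encodes a ligand by which remnant lipoproteins bind their receptors, and it is made by liver, macrophages and astrocytes. APOE (ENSG00000130203, chromosome 19, 44905791 to 44909393, plus strand, hg38) had 62, 86 and 152 counts in NC and 2988, 2413 and 2752 counts in LINC00862. In FPKM this was 0.423, 0.594 and 1.04 in NC against 18.1, 16.9 and 19.05 in LINC00862. All 3 LINC00862 libraries were above all 3 NC libraries, and the spread was wider, relative to the mean, in NC (0.686 ± 0.319 FPKM, SD, n = 3) than in LINC00862 (18.04 ± 1.05 FPKM, SD, n = 3). The log2 fold change was 4.85, with a 95% interval from 4.05 to 5.64 (SE 0.35, adjusted p = 3.77e-06, edgeR's quasi-likelihood test), which is 28.8-fold. The exact two-sided permutation test of FPKM gave p = 0.1, the smallest that 20 arrangements of the libraries allow. By FPKM, APOE ranked 14016, 12775 and 11138 among all listed genes in the NC libraries and 1835, 1974 and 1510 in the LINC00862 libraries. Changes of this size were common in the comparison, since 2038 of the 7145 genes called higher (28.5%) had a larger log2 fold change than APOE. Of the macrophage markers, which mark another cell type that makes ApoE, 3 of 7 were called higher (beside 34.4% of all tested genes) and 4 were not called, and their part in the APOE level was not tested.

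APOB encodes the structural protein of VLDL and LDL, of which each particle holds a single copy. APOB (ENSG00000084674, chromosome 2, 21001429 to 21044073, minus strand) had 6, 0 and 0 counts in NC and 128, 167 and 149 counts in LINC00862. The groups did not overlap, and NC replicate 1 held every NC count. Since APOB passed the filter only through the LINC00862 libraries, its log2 fold change there of 6.26 (95% interval 4.29 to 8.23) is a description. With every gene of at least 1 count kept, the log2 fold change was 6.25 (adjusted p = 3.23e-04, edgeR's quasi-likelihood test). Without NC replicate 1 both remaining NC libraries were at 0 and the filtered fit gave 10.25, a value that then depends on the prior count. The level stayed low in both groups, at 0.113, 0.170 and 0.149 FPKM in LINC00862 (0.144 ± 0.0289, SD, n = 3), which ranked 18778 to 20399 among all listed genes.

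MTTP, whose product loads lipid onto ApoB, had 0, 4 and 0 counts in NC and 15, 8 and 0 in LINC00862, and was not tested. LINC00862 replicate 3 held no MTTP count while it held 149 of APOB. Kept in a fit of every gene with at least 1 count, MTTP had a log2 fold change of 2.37 (adjusted p = 0.326, edgeR's quasi-likelihood test). The table places MTTP (chromosome 4, 99563761 to 99623997, plus strand) over TRMT10A on the opposite strand (279 bases), a gene with 199 to 547 counts per library, and whether counting used the strand is not stated.

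APOC1 and APOM did not pass the test. APOC1 encodes a small apolipoprotein that inhibits the cholesteryl ester transfer protein, and it had 34, 69 and 17 counts in NC and 24, 21 and 28 in LINC00862. Its NC libraries spanned the LINC00862 libraries on both sides, from 0.172 to 0.840 FPKM against 0.220 to 0.305 FPKM. The log2 fold change was -0.62 (SE 0.59, 95% interval -1.95 to 0.72, adjusted p = 0.384, edgeR's quasi-likelihood test), and it was 0.09 without NC replicate 2, the highest NC library. At these counts the interval holds both a lower and a higher level in LINC00862, so a change of moderate size was not detectable.

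APOM encodes the apolipoprotein of HDL that carries sphingosine 1-phosphate. Its counts were 90, 78 and 96 in NC and 68, 60 and 103 in LINC00862. LINC00862 replicates 1 and 2 were below every NC library, at 0.691 and 0.717 FPKM against 0.945 to 1.14, and LINC00862 replicate 3 was above them, at 1.23 FPKM. The log2 fold change was -0.07 (SE 0.38, 95% interval -0.93 to 0.79, adjusted p = 0.887, edgeR's quasi-likelihood test), and its sign turned under upper quartile scaling (0.15). APOM (chromosome 6, 31652416 to 31658210, plus strand) overlaps BAG6 on the opposite strand by 290 bases, and BAG6 had 12112 to 17881 counts per library.

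The apolipoproteins most typical of secreted HDL and of hepatocytes were at or close to 0. APOA1, the main protein of HDL, had 0, 0 and 14 counts in NC and 0, 0 and 4 in LINC00862. APOA2, the second protein of HDL, had 0 counts in every NC library and 0, 0 and 3 in LINC00862, so no fold is given. APOH, beta-2-glycoprotein I, which binds anionic phospholipids in plasma, had 0 counts in every NC library and 9, 0 and 14 in LINC00862. Against a floor of 3 counts over the NC group, the summed APOH counts were at least 7.30-fold higher in LINC00862, and LINC00862 replicate 2 was at 0 like the NC libraries. None of these genes passed the filter. With every gene of at least 1 count kept, edgeR's quasi-likelihood test gave adjusted p = 0.0717 for APOH, 0.584 for APOA1 and 0.281 for APOA2.

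The composition of the set changed with APOE. The FPKM summed over the 8 genes was 1.91, 2.39 and 2.54 in NC and 19.3, 18.1 and 21.0 in LINC00862. APOE made up 22.2%, 24.85% and 40.9% of that sum in NC and 94.0%, 93.8% and 90.85% in LINC00862. APOM was the larger share in every NC library, at 56.3%, 39.6% and 44.9%, and made up 3.58% to 5.85% in LINC00862. Without APOE the sum was 1.48, 1.80 and 1.501 FPKM in NC and 1.15, 1.13 and 1.92 FPKM in LINC00862, and the groups overlapped. Set against fibrinogen, the most abundant of the hepatocyte markers, APOE was low in LINC00862. The FPKM summed over FGA, FGB and FGG was 5.83 to 15.5 times that of APOE in NC and 93.7 to 120.8 times in LINC00862. Other secreted hepatocyte products were below APOE (18.04 ± 1.05 FPKM, SD, n = 3) in LINC00862. ALB was at 1.51 ± 0.264, AMBP at 0.809 ± 0.144 and TTR at 0.464 ± 0.158 FPKM. These are examples, and not every secreted product of the marker list lay so far below APOE.

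APOE and APOC1 are neighbours in the apolipoprotein cluster of chromosome 19, and APOE was called higher while APOC1 was not called. The ratio of APOE to APOC1 in FPKM was 1.05, 0.707 and 6.03 in NC and 77.3, 77.0 and 62.4 in LINC00862, without overlap. In the order of the chromosome, BCAM (log2 fold change 0.10, adjusted p = 0.618) and TOMM40 (0.12, adjusted p = 0.575) were not called by edgeR's quasi-likelihood test, and the sign of both turned when scaled by library size only (-0.06 and -0.03). NECTIN2, a cell adhesion molecule, was lower (-1.40, SE 0.19, adjusted p = 1.68e-04), and CLPTM1, beyond APOC1, was higher (0.61, SE 0.15, adjusted p = 0.00653). APOE begins 2101 bases after the end of TOMM40, which encodes a mitochondrial import channel, and ends 4853 bases before APOC1. TOMM40 stood at 35.9 ± 6.11 FPKM in NC and 34.9 ± 3.40 FPKM in LINC00862 (SD, n = 3), so of these 3 adjacent genes APOE was the one called. APOC2, APOC4 and APOC1P1 of the same cluster were not analysed here. The 95% interval of APOE (4.05 to 5.64) lay above those of the other 5 tested genes of the cluster. A short gene of the table, AC011481, overlaps APOE by 19 bases and APOC1 by 722 bases on the same strand, with 2 to 15 counts per library.

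**Figure D2:**
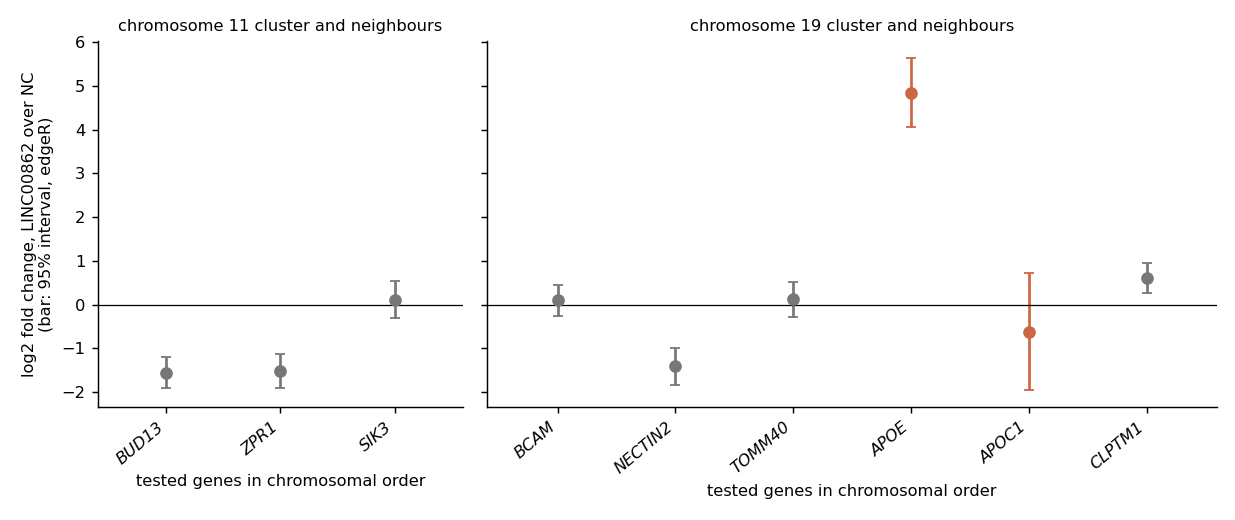
Log2 fold change of LINC00862 over NC (vertical axis) with its 95% interval from edgeR for the tested genes around the apolipoprotein clusters of chromosomes 11 and 19, in chromosomal order (horizontal axis, not to scale). Apolipoprotein genes are orange and neighbours grey, and APOE at 4.85 lies above the other genes, which range from -1.56 to 0.61.

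The start regions of APOE and APOC1 are shown because APOE was called higher and its neighbour APOC1 was not called. Promoter windows, from 250 bases before to 50 after a start site, came from a RefSeq table (GRCh38.p14) in which 7 of the 10 genes were matched by symbol. APOA1, APOB and APOC3 were unmatched. The windows below are chr19:44905546-44905845 (APOE, 1 of 3 start sites listed, 5 bases from the start in the table) and chr19:44914422-44914721 (APOC1, 425 bases from the start in the table), both on the plus strand, with a match to the CCAAT box in capitals.
APOE: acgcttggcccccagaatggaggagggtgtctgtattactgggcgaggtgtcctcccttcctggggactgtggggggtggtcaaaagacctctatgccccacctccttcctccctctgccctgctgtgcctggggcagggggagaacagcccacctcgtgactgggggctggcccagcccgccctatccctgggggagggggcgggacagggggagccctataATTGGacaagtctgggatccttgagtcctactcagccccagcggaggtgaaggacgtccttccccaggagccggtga
APOC1: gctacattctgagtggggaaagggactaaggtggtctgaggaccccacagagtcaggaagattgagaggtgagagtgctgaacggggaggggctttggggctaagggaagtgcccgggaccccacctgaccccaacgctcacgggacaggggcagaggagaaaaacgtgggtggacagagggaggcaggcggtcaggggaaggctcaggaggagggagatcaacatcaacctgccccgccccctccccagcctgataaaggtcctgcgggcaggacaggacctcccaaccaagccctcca
APOE held a CCAAT box on the reverse strand, 27 bases upstream of the start, a motif found in 34.6% of 35116 promoters of the same length when both strands are searched. APOC1 held no match to CCAAT, to the TATA box TATAAA (in 11.5% of promoters) or to the liver factor motifs given further below. Both windows were rich in G and C, at 65% and 62.3% against a median of 58.7%.

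The cluster on chromosome 11 holds APOA1, APOC3, APOA4 and APOA5, of which APOA1 alone has a row in the table. Its tested neighbours did not share a direction with APOE. BUD13, a splicing factor, was lower (log2 fold change -1.56, SE 0.16, adjusted p = 2.9e-05, edgeR's quasi-likelihood test), as was ZPR1, a zinc finger protein (-1.52, SE 0.17, adjusted p = 5.52e-05). SIK3, a salt-inducible kinase, was not called (0.11, adjusted p = 0.622), and its sign turned when scaled by library size only (-0.06). APOA1-AS, which overlaps APOA1 by 1498 bases on the opposite strand, had 5 counts in LINC00862 replicate 2 and 0 in the other 5 libraries, so the few APOA1 counts were not in the libraries that held the antisense gene.

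Of 13 other apolipoprotein genes, 7 have a row and 5 were tested, of which 4 were higher in LINC00862 and 1 lower (median log2 fold change 1.13). Over all tested genes, 34.4% were higher and 29.8% lower, with a median of 0.11. APOL1, which lyses trypanosomes, rose from 13.1 ± 0.546 to 29.7 ± 3.59 FPKM (SD, n = 3; log2 fold change 1.35, adjusted p = 2.75e-05, edgeR's quasi-likelihood test). APOL2 rose from 21.8 ± 2.29 to 42.4 ± 1.47 FPKM (1.13, adjusted p = 1.81e-04). CLU, clusterin or ApoJ, an extracellular chaperone, rose from 8.52 ± 0.834 to 18.4 ± 3.30 FPKM (1.27, adjusted p = 1.71e-04). APOL3 fell from 1.24 ± 0.0967 to 0.131 ± 0.0517 FPKM (-3.05, adjusted p = 7.86e-05), so members of the APOL family, which lie side by side on 1 chromosome, did not share a direction. Per gene length, APOL2 was 23.4 to 47.3 times as abundant as APOE in NC and 2.14 to 2.56 times in LINC00862.

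Around VLDL assembly and secretion, 9 of 17 tested genes were higher, 3 lower and 5 not called (median 0.97), beside 34.4% higher and 29.8% lower over all tested genes (median 0.11). APOB is not in that list, and 1 of the 17, CES1, passed the filter through LINC00862 alone. P4HB, the protein disulfide isomerase that forms the MTP complex with the MTTP product, had 264 ± 41.0 FPKM in NC and 320.5 ± 62.5 FPKM in LINC00862 (SD, n = 3) and was not called (log2 fold change 0.44, adjusted p = 0.0815, edgeR's quasi-likelihood test), although DESeq2 called it higher (0.49, adjusted p = 0.0235). It was thus present at a high level where its partner MTTP was close to 0. MIA2, which takes part in the export of large cargo from the endoplasmic reticulum, rose from 1.07 ± 0.173 to 10.6 ± 1.25 FPKM (log2 fold change 3.47, adjusted p = 2.78e-07). DGAT2, an enzyme of the last step of triglyceride synthesis, rose from 0.167 ± 0.0445 to 2.04 ± 0.416 FPKM (3.72, adjusted p = 6.47e-06). CES1, a carboxylesterase of hepatocytes, was at 0.0132, 0 and 0 FPKM in NC and 0.573, 0.634 and 0.383 FPKM in LINC00862 (3 counts over the NC libraries and 330 over LINC00862; 6.69 and adjusted p = 1.39e-04 in the fit that kept every gene with at least 1 count). ACSL5, an acyl-CoA synthetase of the liver and gut, fell from 2.67 ± 0.689 to 0.222 ± 0.0560 FPKM (-3.39, adjusted p = 8.25e-06). SAR1B, the small GTPase needed for the export of ApoB particles, was at 7.73 ± 0.315 and 7.70 ± 0.449 FPKM and was not called (0.17, adjusted p = 0.301, though 0.39 and adjusted p = 0.0424 under upper quartile scaling), and its paralogue SAR1A fell (-1.08, adjusted p = 7.12e-05). TM6SF2, which takes part in the lipidation of VLDL, had 13, 8 and 12 counts in NC and 0 in every LINC00862 library, and did not pass the filter. Its summed counts were at least 11.55-fold lower in LINC00862, and edgeR's quasi-likelihood test in the fit that kept every gene with at least 1 count gave adjusted p = 0.0135. P4HB, SAR1A, SAR1B and TM6SF2 were named after their values were seen.

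Among genes of HDL maturation and lipid transfer, 7 of 10 tested genes were higher, 2 lower and 1 not called (median 1.92), beside 34.4% higher and 29.8% lower over all tested genes (median 0.11). PON1 and PON3, both among the 7, passed the filter through LINC00862 alone. PLTP, the phospholipid transfer protein, stood out by its level, with 0.166, 0.309 and 0.0909 FPKM in NC and 36.6, 35.8 and 32.7 FPKM in LINC00862 (log2 fold change 7.65, SE 0.37, adjusted p = 3.94e-07, edgeR's quasi-likelihood test). ABCG1, which exports cholesterol to HDL, rose from 0.0187 ± 0.00918 to 1.91 ± 0.307 FPKM. The fit that kept every gene with at least 1 count gave 6.73 for ABCG1 (adjusted p = 7.61e-07, same test). ABCG1 passed the filter only with the LINC00862 libraries, so its call there is a description. The paraoxonases, esterases carried on HDL, were at or near 0 in NC. PON3 had 0, 0.0230 and 0 FPKM in NC and 5.94, 5.10 and 4.54 in LINC00862 (7 counts over the NC libraries and 4523 over LINC00862; 9.32 and adjusted p = 3.38e-06 in the fit that kept every gene with at least 1 count). PON1 had no NC count, and its summed counts were at least 46.7-fold higher in LINC00862. Of the lower genes, LCAT, which esterifies cholesterol on HDL, fell from 9.51 ± 1.69 to 0.390 ± 0.129 FPKM (-4.38, adjusted p = 4.82e-06), and SCARB1, the HDL receptor, fell from 13.7 ± 1.92 to 5.36 ± 1.10 FPKM (-1.19, adjusted p = 2.61e-04). ABCA1, which lipidates ApoA1 and ApoE, rose from 0.105 ± 0.0240 to 0.335 ± 0.0805 FPKM (1.87, adjusted p = 8.52e-04). LCAT, SCARB1 and ABCA1 were named after their values were seen.

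The receptors and enzymes that clear ApoE and ApoB particles included 9 of 19 tested genes that were higher, 8 lower and 2 not called (median 0.45), beside 34.4% higher and 29.8% lower over all tested genes (median 0.11). LMF1, GPIHBP1 and LRP2, all among the 9, passed the filter through LINC00862 alone. LMF1, which folds lipases, had 0.00718, 0.00688 and 0.00630 FPKM in NC and 1.26, 1.15 and 1.14 in LINC00862 (log2 fold change 7.45 and adjusted p = 1.46e-07, edgeR's quasi-likelihood test in the fit that kept every gene with at least 1 count), and lipoprotein lipase, LPL, which hydrolyses the triglycerides of VLDL, rose from 1.45 ± 0.372 to 16.0 ± 1.33 FPKM (3.65, adjusted p = 4.15e-07). GPIHBP1, which anchors that lipase, had no NC count and was at least 54.6-fold higher in LINC00862. Among the genes that were lower was LRP1, the remnant receptor of hepatocytes, which binds ApoE and fell from 11.7 ± 3.60 to 0.802 ± 0.222 FPKM (-3.68, adjusted p = 2.25e-06). HSPG2, the heparan sulfate proteoglycan perlecan, fell from 5.79 ± 1.64 to 0.252 ± 0.0964 FPKM (-4.34, adjusted p = 2.34e-06). MYLIP, a ubiquitin ligase that acts on lipoprotein receptors, rose from 1.51 ± 0.137 to 9.26 ± 0.324 FPKM (2.79, adjusted p = 1.13e-06). LRP2, megalin, was at most at 0.00330 FPKM in NC and at 0.0609, 0.137 and 0.117 FPKM in LINC00862 (4 counts over the NC libraries and 350 over LINC00862; 6.45 and adjusted p = 3.05e-04 in the fit that kept every gene with at least 1 count). LPL, LRP1 and MYLIP were named after their values were seen.

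**Figure D3:**
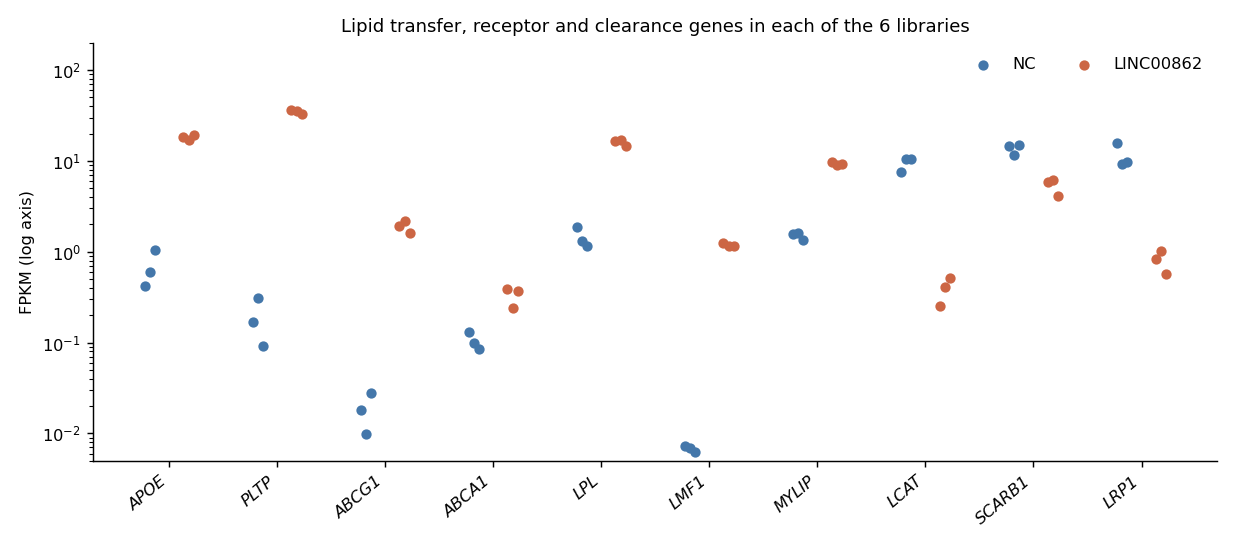
FPKM (vertical axis, log scale) of APOE and of 9 genes of lipid transfer, receptors and clearance, with 1 point per library, NC in blue and LINC00862 in orange. The 9 genes were chosen for the size of their called change or after their values were seen, so their separation follows from that choice. In each of the 10 genes the 3 LINC00862 libraries lie apart from the 3 NC libraries, above them from APOE to MYLIP and below them from LCAT to LRP1.

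APOB messenger RNA can be edited by the deaminase APOBEC1, which acts with the RNA-binding cofactors A1CF and RBM47 and yields the short intestinal form of ApoB. Of 8 tested genes of this machinery and its named partners, 4 were higher and 4 lower in LINC00862 (median -0.08), beside 34.4% and 29.8% over all tested genes (median 0.11). A1CF, among the 4 higher, passed the filter through LINC00862 alone. The cofactors had higher counts in every LINC00862 library, and the enzyme was close to 0 in all 6 libraries. APOBEC1 had 4 counts in LINC00862 replicate 3 and 0 in each of the other 5 libraries, and was not tested. A1CF had 0 counts in every NC library and 488, 386 and 348 in LINC00862, at least 388-fold higher. RBM47 had 172, 89 and 95 counts in NC and 4849, 4861 and 4157 in LINC00862 (log2 fold change 5.40, SE 0.25, adjusted p = 2.8e-07, edgeR's quasi-likelihood test). CELF2 rose (2.55, adjusted p = 4.29e-06), and HNRNPAB, an abundant RNA-binding protein, fell from 179.3 ± 12.9 to 62.9 ± 2.83 FPKM (-1.34, adjusted p = 8.23e-05). Editing itself cannot be read from counts per gene and was not analysed here.

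The transcription factors and coactivators known to act on apolipoprotein genes included 17 of 20 tested genes that were higher, 2 lower and 1 not called (median 2.43), beside 34.4% higher and 29.8% lower over all tested genes (median 0.11). Of the 20, 7 passed the filter through LINC00862 alone, with FOXA2, NR5A2 and HNF4A among them, so the count and the median are a description. FOXA2 and NR5A2 are factors of liver development and hepatocyte genes, and both had at most 4 counts summed over NC. NR5A2 had 0 NC counts and 128, 188 and 190 in LINC00862, at least 161-fold higher. FOXA2 had 0, 4 and 0 counts in NC and 1261, 891 and 1249 in LINC00862 (log2 fold change 9.68 and adjusted p = 2.05e-06, edgeR's quasi-likelihood test in the fit that kept every gene with at least 1 count). HNF4A, the nuclear receptor that binds the promoters of APOB, MTTP and the chromosome 11 cluster in hepatocytes, stayed low, with 0, 0 and 4 counts in NC and 34, 24 and 14 in LINC00862 (4.07 and adjusted p = 0.0208 in the same fit). In FPKM, HNF4A stood at 0.0594, 0.0480 and 0.0268 in LINC00862, below FOXA2 (6.33, 5.18 and 7.15) in each library.

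The promoter of APOA2 is shown because it holds a motif of a factor family with a member, FOXA2, that was higher in LINC00862. APOA2 itself had few counts. The window is chr1:161223579-161223878 (minus strand) in RefSeq GRCh38.p14, with the match in capitals, and its start site lies 3 bases from that of the gene in the table.
APOA2: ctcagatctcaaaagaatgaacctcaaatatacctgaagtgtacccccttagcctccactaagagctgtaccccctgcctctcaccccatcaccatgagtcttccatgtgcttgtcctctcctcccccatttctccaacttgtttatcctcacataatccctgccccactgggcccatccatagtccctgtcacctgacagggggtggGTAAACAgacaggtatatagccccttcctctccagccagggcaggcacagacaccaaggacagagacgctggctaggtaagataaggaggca
APOA2 held the forkhead motif TGTTTAC on the reverse strand, 42 bases upstream, which is in 3.42% of promoters on either strand. The HNF4 element CAAAGTCCA (in 0.384% of promoters) was in none of the 7 windows, and APOH, APOM, APOA4 and MTTP held none of the 4 motifs searched. The motifs do not overlap each other. Such a match is a description of the letters in the window and no measurement of binding. In LINC00862, FOXA2 had 891 counts or more in each library and APOA2 had 0, 0 and 3 counts. The motif is that of a family, and whether FOXA2 or another member acts on APOA2 was not tested.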

How the data were processed

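The authors deposited, in 1 table, raw counts of reads for each gene in each library, beside FPKM. The submitters' processing notes name cutadapt 1.9, HISAT2 2.0.4, UMI-tools, StringTie 1.3.4d, DESeq2, edgeR and hg38. Polyadenylated RNA was selected with oligo(dT) and the second strand marked with dUTP. Whether counting used the strand, and whether molecular identifiers were collapsed, is not stated. Groups and replicate numbers came from the sample titles.

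Counts of all 35856 genes were filtered with filterByExpr, scaled by TMM and compared with edgeR 4.0.16 in R 4.3.3 (quasi-likelihood test, Benjamini-Hochberg adjustment over 20741 genes, false discovery rate 0.05). SE was derived from the test statistic. An exact two-sided permutation test was used for the FPKM of single genes. Folds against a group at 0 counts use a floor of 3 counts over the group. Scripts were tested on simulated data. Alternatives included DESeq2 1.42.0, library scaling by upper quartile or by total alone, no filter beyond 1 count, a replicate block, limma-trend (limma 3.58.1) on log2 FPKM with a pseudocount of 1 or 0.1, a stricter threshold of 0.01, a null of a fold of 2, and leaving out each library. The 10 genes and all lists were chosen with earlier results of these data known. Named genes are the 10 genes, LINC00862, the cluster genes, the 4 largest called changes of each other pathway list, RBM47, APOBEC1, A1CF and HNF4A, and the 2 most abundant genes of each marker list, except some that are not reported here. Promoters are RefSeq's.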

Additional observations from a re-analysis of the deposited data

How the results depend on the processing

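The comparison rests on 3 libraries a group. APOA1, APOA2, APOH and MTTP, at 15 counts or fewer in each library, did not pass the filter, and their tests come from the fit in which every gene with at least 1 count was kept. APOE and APOB, the latter tested through its LINC00862 counts alone where the filter was kept, were called higher, and no listed gene was called lower, under all 15 alternatives. Leaving out 1 library at a time gave 4.56 to 5.32 for APOE and 5.72 to 10.25 for APOB, the latter highest without NC replicate 1. With limma-trend on log2 FPKM the differences were 3.51 for APOE and 0.19 for APOB at a pseudocount of 1, and 4.60 and 1.25 at a pseudocount of 0.1, since a pseudocount compresses low values. APOC1 ranged from -0.9623 to 0.0883 and APOM from -0.4378 to 0.0916 when 1 library was left out, and APOM was 0.15 with upper quartile scaling, none of them called. Tested against a fold of 2, 8010 of the 20741 tested genes were called in either direction, 4806 higher and 3204 lower. In either direction it called 2 of 5 other apolipoproteins, 6 of 17 assembly and secretion genes and 10 of 19 receptor and clearance genes. It also called 4 of 8 genes of APOB messenger RNA editing and 12 of 20 regulators. The counts are lower because that test asks for more.

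For 40 other named genes, 501 of 520 values kept their direction and their side of the threshold, 1 lost a call (HNF4A, with limma-trend at a pseudocount of 1), 5 gained one (P4HB in 4 settings and SAR1B in 1) and 13 turned sign. The sign changes were of genes with no call. SAR1B was -0.0058 and -0.0066 with limma-trend at pseudocounts of 1 and 0.1. Scaled by library size only, and then with limma-trend at pseudocounts of 1 and 0.1, SIK3 was -0.063, -0.0344 and -0.0408, BCAM -0.0608, -0.056 and -0.0664, and TOMM40 -0.0321, -0.031 and -0.0316. Leaving out 1 library gave -0.0142 to 0.3186 for SIK3 and -0.0289 to 0.299 for TOMM40. The cause was not tested.

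Same-numbered libraries of the groups did not deviate together from their group means, with correlations of -0.05, -0.03 and -0.01 across genes, so the numbers do not pair them. Under a replicate block, 12098 genes were called, APOE (4.94) and APOB (6.50) among them, and APOC1 (-0.42) and APOM (-0.13) were not.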
